A study of Mus musculus with 4 samples.

Results

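The VEGF-C ligand, its relative VEGF-D, the proteins that mature them and the receptors that read them were followed as 7 genes, of the 31053 genes in the deposited matrices, across 4 single-nucleus RNA-seq libraries of mouse brain. The 7 genes were listed by name and not by their values: the ligand genes Vegfc and Vegfd, the processing genes Ccbe1, Adamts3 and Adamts14, and the receptor genes Flt4, which encodes VEGFR-3, and Nrp2, which encodes neuropilin 2. All 7 were present in the matrices and had UMIs, the molecule tags that count captured transcripts, in every library. The study asked what intrathecal VEGF-C delivery does in the brain, and these libraries were made from cortex and striatum of adult male C57BL/6J mice that had received an AAV9 vector by injection into the cisterna magna. AAV-VEGF-C encoded full-length mouse VEGF-C, and AAV-CTRL, the control, encoded soluble ectodomains of mouse VEGFR-3 that do not bind VEGF-C, fused to an immunoglobulin domain. Every group had received a vector.

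Brains were taken at 8 weeks of age, 4 weeks after injection. Frozen tissue of 5 brains per vector, 10 in all, was pooled, and each pool gave 1 cortex library and 1 striatum library. Each of the 4 groups was therefore a single library with no replicate, no test between groups was possible, and every difference below describes a pair of libraries. Intervals are 95% counting intervals, exact Poisson for levels, exact binomial (Clopper-Pearson) for shares of nuclei and exact conditional for ratios, and they leave out the spread between mice, since they reflect counting error alone.

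VEGF-C is secreted as a precursor that binds its receptors weakly. CCBE1, a secreted matrix protein, brings the metalloproteinase ADAMTS3 to the precursor, and the cut made there gives the mature ligand, while ADAMTS14 is a close relative of ADAMTS3 that can make the same cut. Mature VEGF-C and VEGF-D bind VEGFR-3, the receptor that drives growth of lymphatic endothelium, and neuropilin 2 acts as a co-receptor on veins and lymphatic vessels and, in neurons, as a receptor of class 3 semaphorins. The brain parenchyma has no lymphatic vessels, whose nearest beds lie in the meninges, and VEGF-C in artery walls is known to guide those beds.

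The libraries held 17168, 20370, 23724 and 17466 barcodes, in the order AAV-CTRL cortex, AAV-VEGF-C cortex, AAV-CTRL striatum and AAV-VEGF-C striatum, which is kept below, and between 63165470 and 78332657 UMIs each. After called doublets and the clusters rich in them were left out, 73094 of 78728 nuclei were kept and fell into 56 clusters, which marker genes sorted into 25 classes. None of the 7 genes was a marker or was used for clustering. Pairs of libraries shared between 76 and 118 barcode sequences. The region labels went against striatal genes: Ppp1r1b, a gene that striatal projection neurons (SPNs) use, was at 64.0 and 77.4 CPM (UMIs of the gene per 1000000 UMIs) in the libraries labelled cortex and at 19.0 and 18.6 in those labelled striatum, SPN-like nuclei numbered 1140 and 1472 against 374 and 292, and the libraries labelled striatum were rich in Slc17a6, a gene of subcortical glutamatergic neurons, at 149 and 175 against 15.4 and 15.4. Slc17a7, a gene of cortical excitatory neurons, went the way of the labels, at 421 and 464 CPM in cortex against 59.9 and 42.6, and excitatory cortical neuron-like nuclei numbered 4885 and 5638 against 265 and 82. Region names below are labels. The AAV-CTRL library labelled striatum also held 172 sustentacular-like and 250 olfactory sensory neuron-like nuclei, cells of the nasal epithelium, against 8 and 15 in its AAV-VEGF-C partner.

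Of the 7 genes, 6 had a promoter among 32851 RefSeq promoters of 300 bases, 250 before to 50 after each gene's RefSeq start (GRCm38.p6). The promoters of both ligands and of VEGFR-3 are shown because the ligands and their receptor are the genes the results turn on. Capitals mark CG dinucleotides and the motif TATAAA, searched on both strands. They lie at chr8:54077282-54077581 for Vegfc, chrX:164373272-164373571 for Vegfd and chr11:49609429-49609728 for Flt4, all on the plus strand.
Vegfc: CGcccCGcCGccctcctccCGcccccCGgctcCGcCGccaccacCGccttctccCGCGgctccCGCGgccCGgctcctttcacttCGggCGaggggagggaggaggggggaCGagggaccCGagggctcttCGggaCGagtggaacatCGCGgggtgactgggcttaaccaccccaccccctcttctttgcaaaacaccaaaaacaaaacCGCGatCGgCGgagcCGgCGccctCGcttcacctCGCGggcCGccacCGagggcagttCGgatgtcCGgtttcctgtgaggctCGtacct
Vegfd: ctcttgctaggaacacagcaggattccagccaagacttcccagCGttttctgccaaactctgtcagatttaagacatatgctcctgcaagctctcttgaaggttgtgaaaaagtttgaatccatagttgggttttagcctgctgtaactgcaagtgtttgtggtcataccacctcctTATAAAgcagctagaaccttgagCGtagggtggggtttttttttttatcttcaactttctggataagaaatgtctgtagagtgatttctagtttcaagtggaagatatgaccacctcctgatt
Flt4: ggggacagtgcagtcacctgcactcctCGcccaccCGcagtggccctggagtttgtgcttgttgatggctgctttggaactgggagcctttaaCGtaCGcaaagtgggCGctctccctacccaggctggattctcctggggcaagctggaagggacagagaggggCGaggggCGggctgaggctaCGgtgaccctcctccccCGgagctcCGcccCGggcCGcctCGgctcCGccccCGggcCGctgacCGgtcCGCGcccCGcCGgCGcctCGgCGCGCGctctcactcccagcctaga
The Vegfc promoter held 35 CG dinucleotides and the Flt4 promoter 26, both with 70.3% G and C. The Vegfd promoter held 2 with 42.0% G and C, and 1 TATAAA on the plus strand, a motif that 13.6% of all promoters held on either strand. Over all promoters the median was 7 CG dinucleotides, and 93.8%, 84.5% and 23.3% of them had as few as Vegfc, Flt4 and Vegfd. Adamts3, Adamts14 and Nrp2 had CG-rich promoters like that of Vegfc, with 41, 44 and 37 CG dinucleotides and no TATAAA. These matches describe the letters of the windows.

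Vegfc was highest in smooth muscle and in arterial endothelium. Its level in smooth muscle-like nuclei was 214 CPM (191 to 238, 328 UMIs in 244 nuclei), and by library it was 205, 225, 262 and 167. The next class, endothelial-like nuclei, stood at 42.8, and its range over libraries, 25.4 to 54.1, did not reach the lowest smooth muscle value. Fibroblast-like nuclei at 39.9 and pericyte-like nuclei at 28.5 followed, each overlapping its neighbour in that order. A Vegfc UMI was found in 47.5% of smooth muscle-like nuclei, against 0.494% of oligodendrocyte-like and 0.458% of microglia-like nuclei, which serve here as the background that free RNA leaves in droplets. Median depth was 4312 UMIs in the first class and 1727 and 1504 in the other two, and 16.0% of smooth muscle-like nuclei had a Vegfc UMI once all were thinned to 1000 UMIs.

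Among endothelial nuclei Vegfc was highest on the arterial side. Subclustering of 6415 vascular and stromal nuclei gave an arterial-like endothelial group of 78 nuclei, named from Gja5, Bmx, Fbln5 and other arterial markers, in which Vegfc stood at 259 CPM (185 to 352). That value rested on 40 UMIs, and by library on 5, 3, 16 and 16. Venous-like endothelial nuclei stood at 47.6, and endothelial-like nuclei of no named segment, 2729 of the 3000, at 33.9. Smooth muscle-like nuclei also carried endothelial marker RNA: 218 of the 244 had a UMI of at least 1 of 15 endothelial markers, all 15 were detected, their sum was 7254 CPM, and 325 of the 328 Vegfc UMIs lay in those nuclei. The 26 smooth muscle-like nuclei without such a UMI held 3 Vegfc UMIs, all in 1 nucleus, at a median depth of 1599.5 UMIs against 4926. In pericyte subcluster 4, poor in endothelial marker RNA, Vegfc had 2 UMIs in 397 nuclei, and in subcluster 2, rich in it, 96 UMIs in 683. Arterial endothelial markers stood at 3451 CPM in smooth muscle-like nuclei, against 789.6 and 771 in endothelial subclusters 0 and 1. They stood at 9844 in the arterial-like group and at 3759 in fibroblast subcluster 5. Fibroblast markers stood at 2628 in smooth muscle-like nuclei. The part of endothelial RNA, that of arteries included, and of fibroblast RNA in the smooth muscle value was not tested.

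Although smooth muscle had the highest level, it held 10.7% of all Vegfc UMIs, because the class is small. Neurons held most of the rest: unresolved neurons, those whose markers met no single neuron class, held 30.9%, excitatory cortical neuron-like nuclei 13.0% and Slc17a6 glutamatergic neuron-like nuclei 10.5%, as the plot of UMI shares shows. Of the UMIs of all genes, unresolved neurons held 35.7%, excitatory cortical neuron-like nuclei 18.3% and smooth muscle-like nuclei 0.608%. The first 2 of these groups thus held less of Vegfc than of all genes. Among neurons the level ranged from 1.61 CPM in SPN-like to 21.0 in cerebellar granule neuron-like nuclei. Sst/Pvalb interneuron-like nuclei, at 19.0, and Slc17a6 glutamatergic neuron-like nuclei, at 18.4, did not differ from the latter beyond their range over libraries. The SPN-like level was below that of microglia-like nuclei at 2.91 and oligodendrocyte-like nuclei at 2.73.

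**Figure D1:**
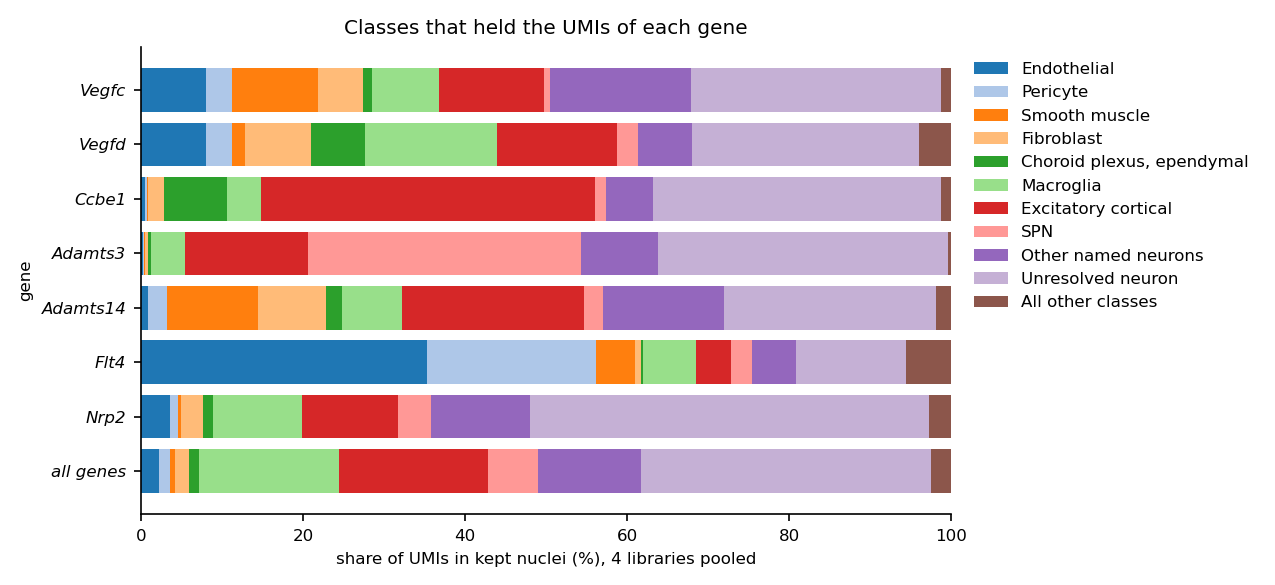
Share of the UMIs of each gene, in percent of its UMIs in kept nuclei with the 4 libraries pooled, held by groups of classes (colours); the bottom bar gives the same for all genes. Endothelial-like nuclei held 35.4% of Flt4 UMIs, and SPN-like nuclei held 33.7% of Adamts3 UMIs.

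Vegfd was sparse and had no single leading source. By the fixed rule its leading class was ependymal-like nuclei, the ciliated lining of the ventricles, at 28.2 CPM (21.5 to 36.3, 60 UMIs), with 29.2, 21.0, 32.7 and 26.6 by library. Fibroblast-like nuclei at 26.0 and choroid plexus epithelium-like nuclei at 23.1 overlapped that range, and so did the endothelial-like class at 18.7. Sustentacular-like nuclei stood at 44.2 on 16 UMIs, of which 6 came from 1 nucleus. A UMI was found in 12.1% of ependymal-like nuclei against 0.524% and 0.504% of oligodendrocyte-like and microglia-like nuclei, and in 3.19% after thinning, at a median depth of 2761.5 UMIs. In the arterial-like endothelial group Vegfd stood at 77.6 CPM (40.1 to 135) on 12 UMIs. Vegfd starts 366 bases past the end of Pir on the same strand, and 15.3% of the 1227 nuclei with a Vegfd UMI also had a Pir UMI, against 3.31% of the 71867 others, at median depths of 4501 and 2361 UMIs. Pir and 4 mitochondrial genes were the 5 genes whose levels over the 25 classes were most like those of Vegfd, with Pearson r between 0.85 for mt-Cytb and 0.92 for mt-Nd5. The mitochondrial share of UMIs by class ran from 0.581% in Slc17a6 glutamatergic neuron-like to 3.62% in smooth muscle-like nuclei, and its part in the Vegfd order was not tested.

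**Figure D2:**
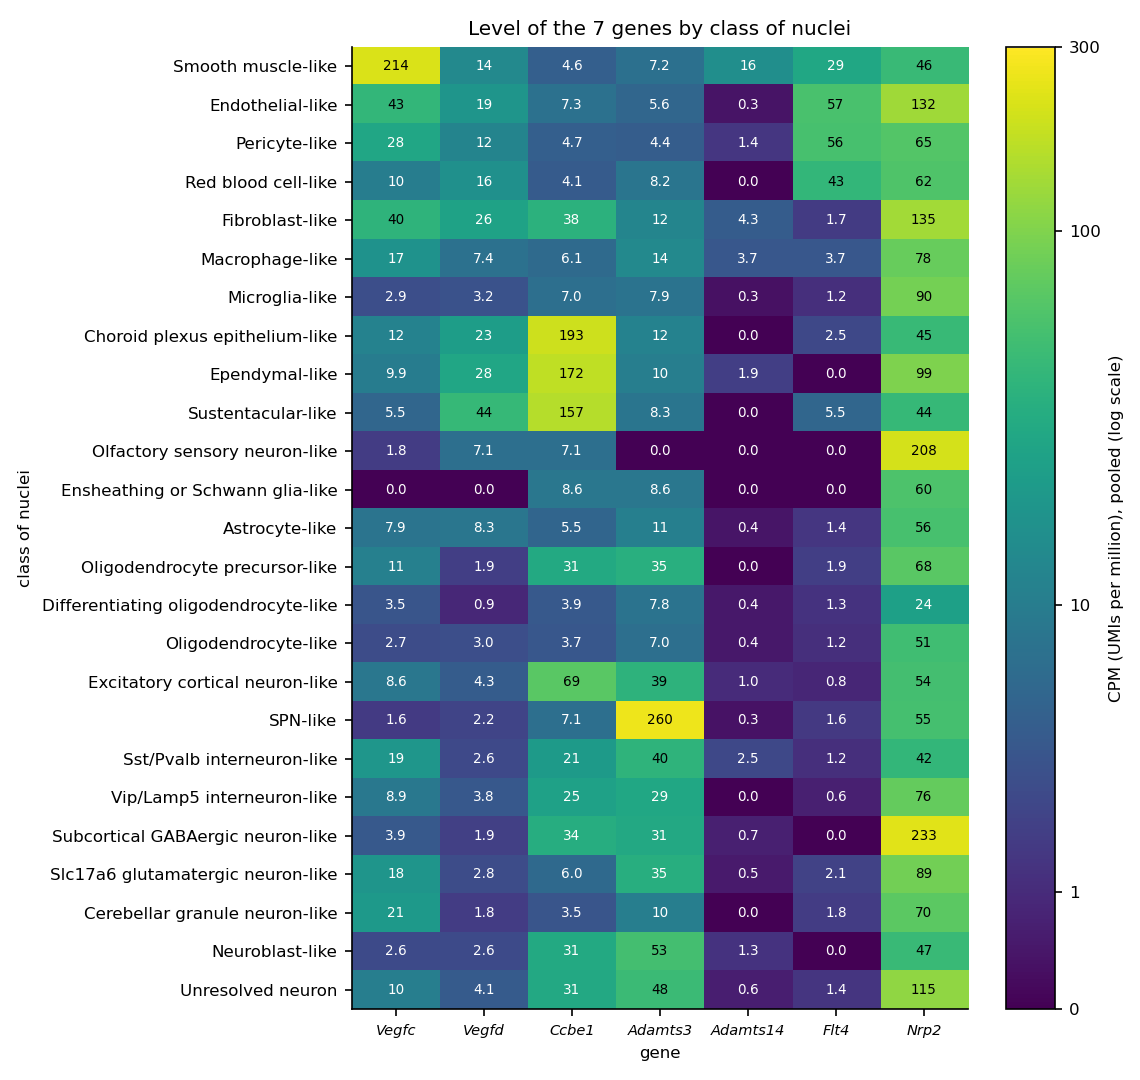
Level of each gene (columns) in each of 25 classes of nuclei (rows) as CPM, 4 libraries pooled, with a log colour scale and the value printed in each cell; levels are to be compared down a column, since genes differ in length. Vegfc peaked at 214 in smooth muscle-like nuclei, Ccbe1 at 193 in choroid plexus epithelium-like nuclei and Adamts3 at 259.8 in SPN-like nuclei.

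The matrix factor Ccbe1 was highest, by class, at the ventricle. Choroid plexus epithelium-like nuclei, which make cerebrospinal fluid, stood at 193 CPM (169.5 to 219.9, 235 UMIs) and ependymal-like nuclei at 172 (155 to 191, 366 UMIs). By library the choroid plexus level was 274, 195, 162 and 143 and the ependymal level 171, 171, 214 and 129.7, so the order of those classes was not the same in every library. Sustentacular-like nuclei stood at 157 on 57 UMIs, 54 of them from the AAV-CTRL striatum library, and excitatory cortical neuron-like nuclei came next at 68.9. A Ccbe1 UMI was found in 32.7% of choroid plexus and 37.9% of ependymal-like nuclei, against 0.659% and 1.05% of oligodendrocyte-like and microglia-like nuclei, and in 15.7% of choroid plexus nuclei after thinning.

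Excitatory neurons nevertheless held 41.2% of Ccbe1 UMIs, and within that class the gene was uneven. Cluster 20, led by Spink8 and Fibcd1, genes known from hippocampal pyramidal neurons, stood at 228 (216 to 240.1), above the choroid plexus value, and by library at 227, 255, 171 and 122. Cluster 11 held 19.2% of all Ccbe1 UMIs at 125, and cluster 17, an unresolved neuron cluster led by Dsp and C1ql2, genes known from dentate granule neurons, stood at 164. Vessel-wall classes were low, with 7.34 in endothelial-like, 4.65 in pericyte-like and 4.57 in smooth muscle-like nuclei. Fibroblast-like nuclei stood at 38.4, carried by subclusters 6 and 3 at 73.7 and 70.1, while subcluster 5 was at 4.41. The 5 genes most like Ccbe1 over the classes were Slit2, Spats2l, Guf1, Cxadr and Macc1, with r from 0.77 to 0.82 over 25 classes.

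The protease gene Adamts3 was highest, by class, in striatal projection neurons. Its level in SPN-like nuclei was 259.8 CPM (252 to 268, 4027 UMIs in 3278 nuclei), with 264, 253, 274 and 259 by library, so all 4 libraries fell in a narrow range whatever the label. The next class, neuroblast-like nuclei, was at 53.3 with a range of 15.0 to 96.8 that did not overlap. A UMI was found in 62.0% of SPN-like nuclei, against 1.25% and 1.15% of oligodendrocyte-like and microglia-like nuclei, and in 20.9% after thinning from a median of 4663.5 UMIs. SPN-like nuclei held 33.7% of Adamts3 UMIs, or 52.4% of those in named classes. Cluster 27, an unresolved neuron cluster with Foxp2, Tshz1 and Otof among its leading genes, stood at 306 (282 to 332), and cluster 49, with Drd3 and Isl1, at 222. Endothelial-like nuclei at 5.59, pericyte-like nuclei at 4.36 and smooth muscle-like nuclei at 7.18 lay at or below the level of oligodendrocyte-like nuclei at 7.03 or microglia-like nuclei at 7.86. The genes most like Adamts3 were Mcmdc2, Gm10629, Hfm1, Syt6 and Lrrc7, with r from 0.84 to 0.87 over 25 classes.

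Adamts14 was barely detected, with 41, 57, 65 and 51 UMIs per library. Its leading class was smooth muscle-like nuclei at 15.7 CPM (10.0 to 23.3) on 24 UMIs, 2, 3, 11 and 8 by library, or 33.1 CPM with classes set by the marker UMIs of each nucleus. A UMI was found in 8.20% of the clustered class, against 0.0776% of oligodendrocyte-like and 0.0458% of microglia-like nuclei. Among neurons, cluster 46, in the Sst/Pvalb interneuron-like class, held 18 UMIs, or 12.1 CPM. The leading genes Frem3 and Six3 set that cluster apart. Acta2, a contractile gene of smooth muscle, was the gene most like Adamts14 over the classes, with r of 0.75.

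Vegfc, Ccbe1 and Adamts3 thus had their highest levels in 3 different classes. Over the 25 classes, r between Vegfc and Ccbe1 was -0.05, between Vegfc and Adamts3 -0.09 and between Ccbe1 and Adamts3 0.24, while Vegfc gave 0.65 with Adamts14 and 0.64 with Flt4. These values describe pooled class levels that share libraries and depth. In single nuclei, 273 of the 2415 nuclei with a Vegfc UMI also had a Ccbe1 UMI and 359 an Adamts3 UMI, and 991 nuclei had both Ccbe1 and Adamts3. Since all 3 proteins are secreted, detection in 1 nucleus is not needed for them to meet.

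Flt4 was highest in vessel nuclei. Its level in endothelial-like nuclei was 56.8 CPM (50.8 to 63.3, 325 UMIs in 3000 nuclei), with 68.1, 53.4, 54.1 and 54.0 by library. Pericyte-like nuclei at 55.5, red blood cell-like nuclei at 43.1 and smooth muscle-like nuclei at 28.7 followed, and no other class was above 3.68 except sustentacular-like nuclei, at 5.52 on 2 UMIs. These 4 classes held 65.5% of Flt4 UMIs. A UMI was found in 9.33% of endothelial-like nuclei, at a median depth of 1484.5 UMIs, against 0.204% and 0.183% of oligodendrocyte-like and microglia-like nuclei. The genes most like Flt4 over the classes were Adcy4, Erg, Clic5, Sgms1 and Edn1, with r from 0.93 to 0.96, of which Erg, an endothelial transcription factor, was itself a class marker.

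In the other vessel classes Flt4 moved with endothelial marker RNA. Pericyte subcluster 2, with endothelial markers at 13861 CPM, had Flt4 at 65.3, whereas subcluster 4, with endothelial markers at 1448, had 8.49. The 173 pericyte-like nuclei without an endothelial marker UMI held 0 Flt4 UMIs, which allows up to 16.2 CPM, against 59.5 in the 907 nuclei with one, at median depths of 1274 and 2729 UMIs. Likewise the red blood cell subcluster 11, with endothelial markers at 14356, had Flt4 at 63.0, and the smooth muscle-like nuclei without an endothelial marker UMI held 0 Flt4 UMIs, which allows up to 61.9. Flt4 in pericyte-like and red blood cell-like nuclei cannot therefore be told apart here from endothelial RNA in the same droplets.

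Along the vessel, Flt4 was lower in the venous-like group than in nuclei of no named segment. The latter stood at 64.1 CPM (56.8 to 72.0) and the venous-like group of 193 nuclei at 33.4 (23.9 to 45.5). The arterial-like group stood at 32.3 on 5 UMIs, with an interval of 10.5 to 75.4 that holds both values. The venous-like group, named from Vwf, Slc38a5, Vcam1 and other venous markers, also carried fibroblast markers at 2565 and pericyte markers at 3085 CPM, and the part of these in its level was not tested. No lymphatic endothelial cluster was found: of 3000 endothelial-like nuclei, 5 had UMIs of at least 3 of Prox1, Lyve1, Mmrn1, Pdpn, Ccl21a and Stab2 and 10 had UMIs of 2, and 8 of those 15 nuclei had an Flt4 UMI.

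**Figure D3:**
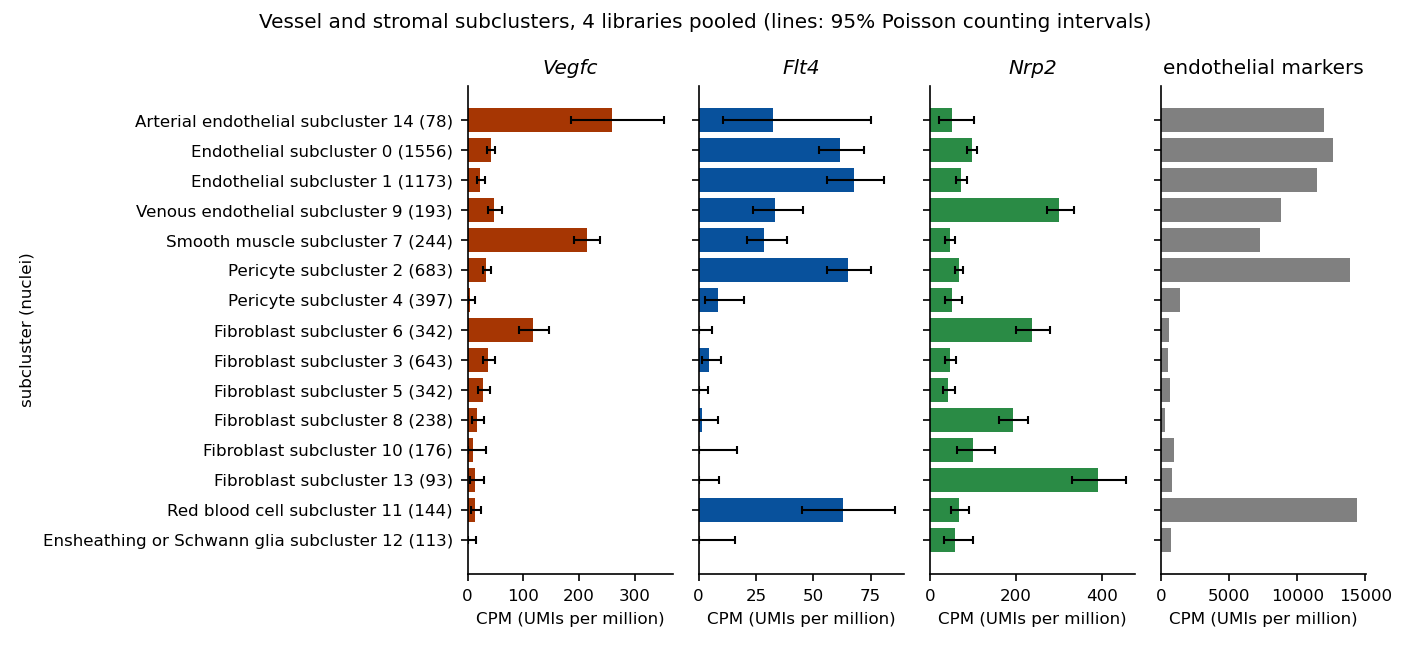
Levels of Vegfc, Flt4 and Nrp2 and the summed endothelial markers, in CPM, in the subclusters of vascular and stromal nuclei with the 4 libraries pooled; bars on the gene values are 95% Poisson intervals. Vegfc was at 259 in the arterial-like group, Nrp2 at 302 in the venous-like group, and Flt4 at 65.3 and 8.49 in the pericyte subclusters with 13861 and 1448 of endothelial marker CPM.

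Nrp2 was broad, with its peaks in neurons. By the fixed rule its leading class was subcortical GABAergic neuron-like nuclei at 233 CPM (209 to 258), with 225 and 244 in the libraries labelled striatum. With classes set by the marker UMIs of each nucleus the level was 53.6 (19.7 to 117), below the fibroblast-like level of 135 and the endothelial-like level of 132. The libraries labelled cortex held 11 and 0 such nuclei. A UMI was found in 50.4% of that class but also in 8.44% of oligodendrocyte-like and 12.5% of microglia-like nuclei, and in 21.8% after thinning from a median of 3789 UMIs. Single clusters stood far higher: cluster 51, with Eomes and Postn, at 887 (799 to 981) and by library at 900, 767, 879.7 and 911, cluster 35, with Gpr151, Chrnb4 and Tac2, genes known from the medial habenula, at 660.1 (621 to 701), and clusters 60 and 49 at 433 and 432. The unresolved neurons held 49.2% of all Nrp2 UMIs at 115 CPM.

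Outside neurons, Nrp2 was highest in venous-like endothelial and in part of the fibroblast-like nuclei. The venous-like endothelial group stood at 302 CPM, with 206, 317, 285 and 368 by library, against 88.1 in nuclei of no named segment and 51.7 in the arterial-like group, so every library of the venous-like group lay above those pooled values. The venous-like group carried fibroblast markers at 2565 CPM, and their part in its Nrp2 level was not tested. Fibroblast subclusters 13, 6 and 8 stood at 391, 238 and 193. Olfactory sensory neuron-like nuclei were at 208 on 274 nuclei, 250 of them from 1 library. Of the 787 nuclei with an Flt4 UMI 192 also had an Nrp2 UMI, and among endothelial-like nuclei this was 57 of 280. The genes most like Nrp2 reached r of only 0.71, for Tacr3, over 25 classes.

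At the level of whole libraries, all 7 genes lay within 1.5-fold between the vector labels. Vegfc stood at 12.3, 11.7, 12.7 and 11.9 CPM in the 4 libraries, with no library apart. The AAV-VEGF-C over AAV-CTRL log2 ratio was -0.08 (-0.23 to 0.07) in cortex and -0.11 (-0.25 to 0.04) in striatum. Both vectors carry sequence of a listed gene, Vegfc in AAV-VEGF-C and part of Flt4 in AAV-CTRL. The libraries count the ends of transcripts, and the end of the vector transcripts is not given in the sources used here, so neither level checks the label. At a fold of 1.5, 0 of 7 genes were past the fold in cortex and 0 of 7 in striatum, where 3.93% and 6.20% of all genes with at least 30 UMIs were. The median log2 ratio of the 7 genes was -0.07 and -0.18, against -0.01 and 0.00 for all genes.

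Flt4 was the gene that differed most in cortex and Ccbe1 and Vegfd in striatum. Flt4 stood at 3.88, 2.80, 4.22 and 3.74 CPM, the AAV-VEGF-C cortex library being lowest, and its log2 ratio was -0.47 (-0.76 to -0.18) in cortex and -0.18 (-0.43 to 0.08) in striatum. The difference between those ratios was not tested. In cortex the ratio was -0.41 when taken within clusters, -0.44 (-0.78 to -0.09) in the 4 vessel-bearing classes and -0.26 (-0.80 to 0.28) in all others. Within endothelial-like nuclei it was -0.35 (-0.85 to 0.14) and within pericyte-like nuclei -0.57, with an upper bound at 0.00, where the levels were 72.0 and 48.6.

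Ccbe1 stood at 44.0, 40.6, 22.7 and 15.8 CPM, with the AAV-VEGF-C striatum library lowest. Its log2 ratio was -0.52 (-0.64 to -0.41) in striatum and -0.12 (-0.19 to -0.04) in cortex, and within clusters, which holds the make-up of the libraries fixed, -0.23 (-0.35 to -0.10) and -0.04 (-0.12 to 0.04). A whole-library level mixes how many nuclei of a class were caught with how much RNA each held. The ependymal-like level in striatum went from 214 to 129.7, a log2 ratio of -0.72 (-1.13 to -0.32), where 13.7% of all genes tested in that class were past 1.5-fold. In cortex it was 171 in both libraries, where 15.9% of genes were, and the choroid plexus level went from 274 to 195, a ratio of -0.49 (-0.97 to -0.01), or -1.11 with nuclei thinned to 1000 UMIs. Excitatory cortical neuron-like nuclei, the main holders of Ccbe1 UMIs with all libraries pooled, numbered 265 and 82 in the libraries labelled striatum. There they held 15.4% and 6.07% of Ccbe1 UMIs, and unresolved neurons held 45.2% and 59.5%.

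Vegfd stood at 5.47, 5.28, 6.01 and 4.23 CPM, and its ratio in striatum was -0.51 (-0.74 to -0.28), or -0.29 within clusters. Adamts3, at 58.5, 58.9, 38.5 and 33.9, gave 0.01 (-0.06 to 0.08) in cortex and -0.18 (-0.27 to -0.10) in striatum, and within SPN-like nuclei -0.06 (-0.16 to 0.04) and -0.08 (-0.27 to 0.11). Nrp2, at 66.6, 63.4, 105 and 99.7, gave -0.07 in both regions and -0.03 within clusters. Adamts14, at 0.717, 0.837, 0.995 and 0.829, gave 0.22 (-0.38 to 0.84) in cortex, or 1.37 with nuclei thinned to 1000 UMIs, and an interval of -0.82 to 0.29 in striatum. At this depth the intervals still held a 1.5-fold rise in cortex and a 1.5-fold fall in striatum.

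**Figure D4:**
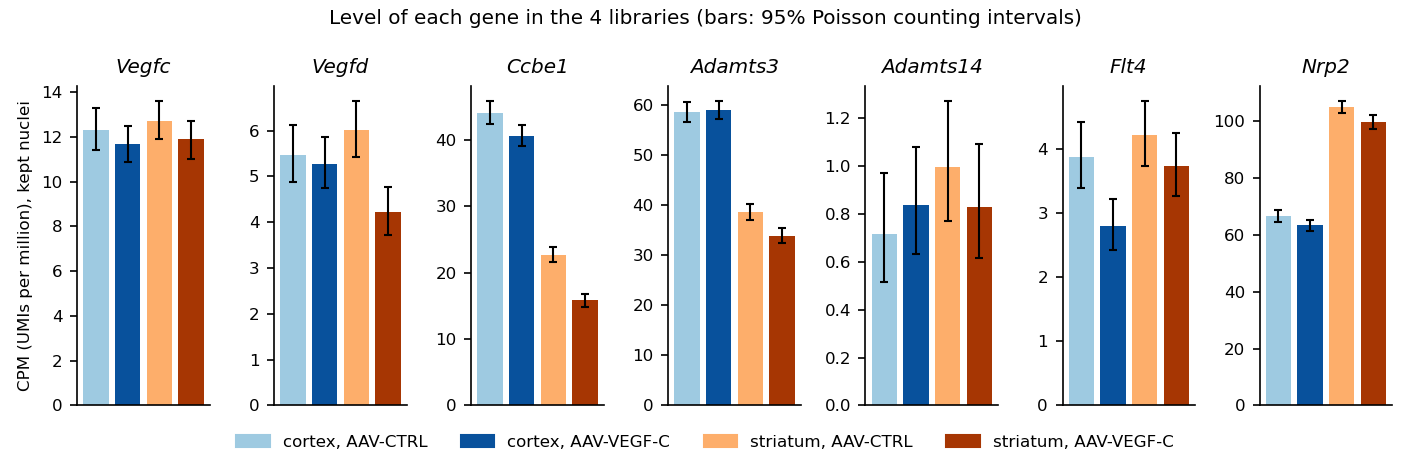
Level of each gene in the 4 libraries as CPM in kept nuclei, 1 panel per gene with its own axis from 0; bars on the columns are 95% Poisson counting intervals. Ccbe1 and Adamts3 were higher and Nrp2 lower in the libraries labelled cortex, and Vegfc was between 11.7 and 12.7 in all 4.

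In smooth muscle-like nuclei the pairs of libraries gave unlike Vegfc ratios, whose difference was not tested. The smooth muscle-like level was 205 and 225 in cortex, a log2 ratio of 0.13 (-0.39 to 0.66), or 1.06 (-0.28 to 2.64) with classes set by the marker UMIs of each nucleus, and 262 and 167 in striatum, a ratio of -0.65 (-1.08 to -0.23). In that striatum comparison 15.5% of the genes with at least 30 UMIs were past 1.5-fold, and in cortex 17.9%. The study reported Vegfc as upregulated in smooth muscle cells by AAV-VEGF-C, from normalised expression per cluster, which is another measure. Its clusters were given by vector and not split by region. By ELISA, a protein assay, it also found more VEGF-C in cerebrospinal fluid, and more VEGF-C and phosphorylated VEGFR-3 in brain extracts. Counts of RNA in nuclei do not measure those proteins. Here, by region label, the smooth muscle-like Vegfc level in striatum was lower with AAV-VEGF-C, and the cortex interval spanned no change. Fibroblast-like nuclei in striatum gave -1.03 (-1.72 to -0.39) for Vegfc, from 49.2 to 24.1, and an interval of -1.69 to -0.35 for Ccbe1, from 48.1 to 24.1. Fibroblast subcluster 6, led by Lum and Mfap4 and holding 58 of the 92 Vegfc UMIs of fibroblast-like nuclei in the AAV-CTRL library, numbered 191 nuclei there and 46 in the AAV-VEGF-C library.

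With an AAV9 vector for GFP, the study saw GFP in vascular smooth muscle cells and in subsets of neurons and glia. Smooth muscle is described above. In endothelial-like nuclei the Vegfc ratio was -0.62 (-1.34 to 0.07) in cortex, from 39.2 to 25.4 CPM, and -0.24 (-0.71 to 0.21) in striatum. Over the 4 vessel-bearing classes it was 0.12 (-0.24 to 0.47) in cortex and -0.36 (-0.65 to -0.07) in striatum. The Vegfc level was also followed outside vessel-bearing classes. There its level was 10.6, 9.91, 9.65 and 9.45 CPM, and the vector ratio was -0.10 (-0.27 to 0.06) for cortex and -0.03 (-0.20 to 0.14) for striatum. In neurons the ratio was -0.15 (-0.33 to 0.03) in cortex and 0.16 (-0.04 to 0.36) in striatum, and in glia 0.58 (0.02 to 1.17) and -0.21 (-0.72 to 0.30). Neurons with at least 3 Vegfc UMIs numbered 12, 13, 8 and 11 in the 4 libraries, and those with at least 5 numbered 0, 0, 0 and 4. The 4 were 1 Slc17a6 glutamatergic neuron-like nucleus with 7 UMIs and 3 nuclei of unresolved neuron cluster 1 with 5 each. They were deep nuclei, at 18776 UMIs in all for the first and 8293 to 12191 for the others. The medians of those classes in that library were 7670.0 and 4273.5. The nucleus with the most, 14 UMIs, was a smooth muscle-like nucleus of the AAV-VEGF-C cortex library.

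**Figure D5:**
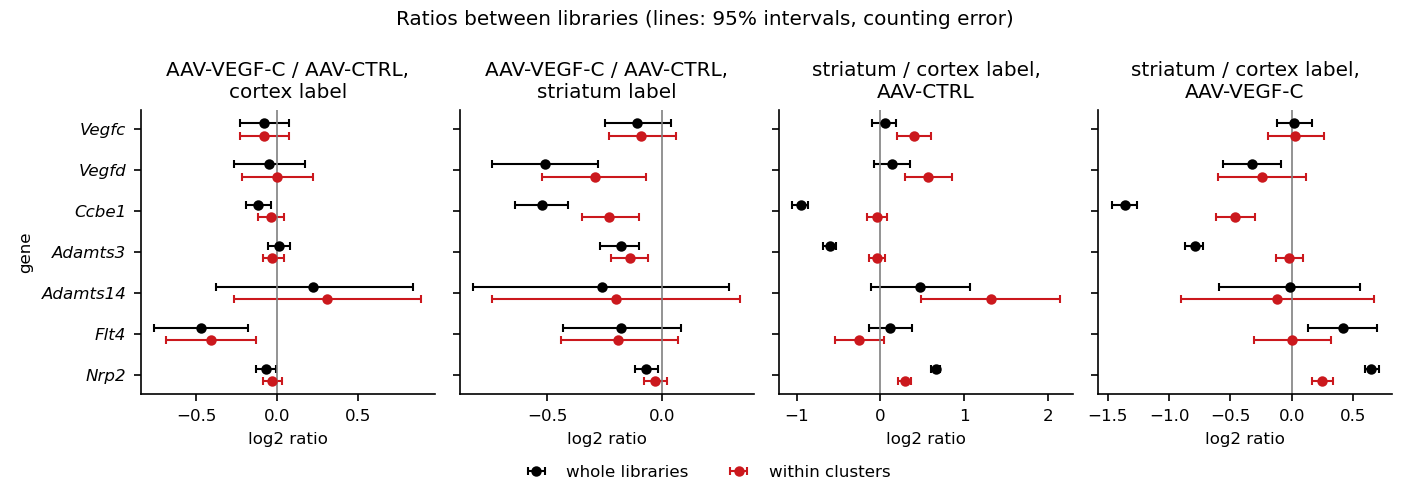
Log2 ratios of the 7 genes between pairs of libraries, AAV-VEGF-C over AAV-CTRL and striatum over cortex label, with 95% counting intervals. For the vector labels all 7 genes lay within 1.5-fold in both regions, and for the region labels Ccbe1 and Adamts3 were lower and Nrp2 higher in both vector groups.

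Differences between the region labels were larger. Striatum over cortex, 3 of 7 genes were past 1.5-fold under both vectors, where 29.5% of all genes were with AAV-CTRL and 29.7% with AAV-VEGF-C. By direction, 1 of 7 was higher, where 20.1% and 20.4% of all genes were, and 2 of 7 were lower, where 9.42% and 9.32% were. Ccbe1 gave log2 ratios of -0.95 (-1.05 to -0.86) and -1.36 (-1.47 to -1.26), Adamts3 -0.60 (-0.68 to -0.53) and -0.79 (-0.87 to -0.72), and Nrp2 0.66 (0.60 to 0.71) and 0.65 (0.60 to 0.71). The median of all genes was itself 0.19 in both comparisons, and with size factors in place of totals Nrp2 gave 0.47 and 0.46, within 1.5-fold. Within clusters Adamts3 gave -0.04 and -0.02, Ccbe1 -0.04 and -0.46, and Nrp2 0.29 and 0.25. The lower Adamts3 went with the lower count of SPN-like nuclei in the libraries labelled striatum, in which the SPN-like level itself was 274 and 259. Vegfc gave 0.05 and 0.02, and Flt4 0.12 (-0.14 to 0.38) and 0.42 (0.13 to 0.70).

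The other genes of the pathway, a list of 37 convertases, matrix partners, receptors, sister ligands, semaphorins, plexins and endothelial transcription factors, were counted in the same way. AAV-VEGF-C over AAV-CTRL, 1 of the 34 with at least 30 UMIs was 1.5-fold higher in cortex and 1 lower, with a median log2 ratio of -0.07, and 1.69% and 2.24% of all genes were. In striatum 0 of 35 were higher and 3 lower, with a median of -0.11, and 2.66% and 3.54% of all genes were. In cortex these were Lyve1, at 14 and 29 UMIs, and Sox18, a transcription factor of lymphatic endothelium, at 2.20 and 1.35 CPM, a ratio of -0.71 (-1.11 to -0.31). In striatum they were Svep1, a matrix protein needed for lymphatic growth, at -0.66 (-0.87 to -0.44), Lyve1 at -0.91 (-1.57 to -0.28) and Mmrn1 at 46 and 7 UMIs. By class, Svep1 was highest in cerebellar granule neuron-like nuclei at 163 CPM, then in fibroblast-like nuclei at 70.7. Lyve1 led in macrophage-like nuclei at 57.6 and Sox18 in red blood cell-like nuclei at 52.4. In the striatum pair macrophage-like nuclei numbered 235 and 116 and fibroblast-like nuclei 881 and 348. The part of these counts in the ratios was not tested. Striatum over cortex, 13 of 35 were higher and 4 lower with AAV-CTRL, where 20.1% and 9.42% of all genes were. With AAV-VEGF-C, 12 of 34 were higher and 4 lower, where 20.4% and 9.32% of all genes were.

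The pathway genes led in many classes, of which a few are given. Kdr, which encodes VEGFR-2, stood at 306 CPM in pericyte-like and 244 in endothelial-like nuclei, the same order as Flt1, a receptor of VEGF-A, at 3470.0 and 3153. Pericyte-like nuclei carried endothelial marker RNA as described for Flt4. Furin, a convertase that cuts the VEGF-C precursor inside the cell, led in sustentacular-like nuclei at 221 and was at 64.6 in smooth muscle-like nuclei, while Pcsk5, another convertase, led in fibroblast-like nuclei at 109. Adamts2, a relative of ADAMTS3, and Fn1, fibronectin, also led in fibroblast-like nuclei, at 156 and 725. Pgf and Sema3g led in smooth muscle-like nuclei at 48.3 and 210.1, Vegfa in astrocyte-like nuclei at 113, and Plxna4, a semaphorin receptor, in olfactory sensory neuron-like nuclei at 1018.

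In the genome the genes lie apart, at chr8:54077606-54187096 for Vegfc, chrX:164373378-164402650 for Vegfd, chr5:89677087-89883334 for Adamts3, chr10:61197112-61273438 for Adamts14, chr11:49609263-49652739 for Flt4 and chr1:62703285-62818695 for Nrp2 in GRCm38. Ccbe1 lies at chr18:66045302-66302741. Nrp2 alone of the 7 overlapped another gene of the matrices, Gm29083, which lies on the opposite strand.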

How the data were processed

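Single-nucleus libraries were made with a droplet 3' method and sequenced by the authors. The deposited counts are whole UMI counts per gene and barcode; the matrix headers name Cell Ranger 5.0.1 and the submitters' processing notes Cell Ranger 5.1.1 and mm10, while the annotation and the counting of introns are not given in the sources used here. Groups were taken from the sample titles. Depth ranged from 63165470 to 78332657 UMIs per library, and the lowest barcode total was 719 UMIs.

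Doublets were called by comparison with simulated pairs (4.70% to 8.45% of barcodes per library), and called nuclei and clusters with at least 40% called nuclei were left out. Counts were scaled to log values, 5000 variable genes without the 7 genes gave 50 components, and Leiden clustering (igraph 0.11.9, resolution 1.2) and subclustering (resolution 0.8) were run. A class name needed at least 3 markers that were 2-fold higher than in other nuclei, and the scoring of names was revised after the clusters were seen. Levels are UMIs of a gene per 1000000 UMIs summed per library and class. Ratios of such sums carry conditional binomial intervals (scipy 1.17.1); genes with at least 30 UMIs over a pair were counted as past the fold at 1.5-fold. The ratio code was checked on simulated counts, where 96.0% and 98.0% of 200 changed genes were called in the cortex and striatum comparisons of 19802 and 20274 genes. That checks the code alone, and with 1 library per group it gives no rate of error between mice. Named genes were the 7 genes, the pathway list and, for each of the 7, the 5 genes with the highest Pearson r of log2 level over classes with at least 50 nuclei, among genes with at least 300 UMIs. Leading classes needed at least 50 nuclei and 20 UMIs; subclusters, clusters and marker genes named beside them were chosen after their values were seen. The 7 genes and the lists were chosen with earlier results of these data known. Alternatives were another resolution, doublets kept, depth filters, thinning, size factors, marker calls per nucleus and, chosen after seeing the data, ratios within clusters. Gene positions come from GENCODE and promoters from RefSeq. No columns were left unused.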

Additional observations from a re-analysis of the deposited data

How the results depend on the processing

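No paired analysis was possible because each group was 1 library. Of 368 values under other settings, 297 stayed within the counting interval or, for counts, within 1.5 times, 71 moved past it and 0 reversed a called direction; the cause was not tested. Ratios are log2.

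With nuclei thinned to 1000 UMIs, the vector ratios in cortex were 0.22 for Vegfd, 1.37 for Adamts14 and -0.15 for Nrp2, and in striatum -0.79 for Vegfd, -0.05 for Adamts3 and -0.13 for Nrp2. In leading classes they were 1.44 for Vegfd, -1.11 for Ccbe1 and -0.18 for Adamts3 in cortex and -0.90 for Ccbe1 in striatum. The region ratios with AAV-CTRL were 0.22 for Vegfc, -0.84 for Ccbe1, -0.75 for Adamts3 and 0.51 for Nrp2, and with AAV-VEGF-C 0.23 for Vegfc, -0.83 for Vegfd and 0.53 for Nrp2. The shares of leading-class nuclei with a UMI were 16.0% for Vegfc, 3.19% for Vegfd, 15.7% for Ccbe1, 20.9% for Adamts3, 1.23% for Adamts14, 5.75% for Flt4 and 21.8% for Nrp2.

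Within clusters, Ccbe1 gave -0.23 for the vector in striatum. For the region with AAV-CTRL the values were 0.40 for Vegfc, 0.57 for Vegfd, -0.04 for Ccbe1, -0.04 for Adamts3, 1.32 for Adamts14, -0.25 for Flt4 and 0.29 for Nrp2, and with AAV-VEGF-C -0.46 for Ccbe1, -0.02 for Adamts3, 0.00 for Flt4 and 0.25 for Nrp2. Size factors shifted every region ratio by -0.18 with AAV-CTRL and -0.19 with AAV-VEGF-C. They gave -0.14 and -0.17 for Vegfc, -1.14 and -1.55 for Ccbe1, -0.79 and -0.99 for Adamts3, and 0.47 and 0.46 for Nrp2.

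With classes set by the marker UMIs of each nucleus, the Vegfc ratio in smooth muscle in cortex was 1.06 and the Adamts3 ratio in SPN nuclei -0.19 in cortex and -0.58 in striatum, and the leading-class levels were 158 for Vegfc, 251 for Adamts3, 33.1 for Adamts14 and 53.6 for Nrp2. At resolution 2.0 smooth muscle Vegfc stood at 189 in 39.6% of nuclei and SPN nuclei held 32.8% of Adamts3 UMIs, and at resolution 0.6 the leading class of Nrp2 held 0.964%. With doublets kept, the shares of UMIs were 9.62% for Vegfc, 32.5% for Adamts3 and 32.2% for Flt4, and the Adamts3 level was 244. Counting named classes alone, they were 15.5% for Vegfc, 6.28% for Vegfd, 4.71% for Ccbe1, 52.4% for Adamts3, 40.9% for Flt4 and 3.34% for Nrp2.

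The count of genes past 1.5-fold rose with a minimum of 1 UMI to 4998 and 5736 for the vector in cortex and striatum and to 10907 and 10661 for the region, and a minimum of 100 UMIs left 189 and 495 for the vector. Subclustering at resolution 0.4 named no venous group, so it gives no value there. Depth limits Adamts14 and Flt4 most, with at most 65 and 276 UMIs per library.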

Other observations

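Some values belong to no comparison above. The nucleus with the most Nrp2 UMIs, 38, came from the AAV-VEGF-C library labelled striatum, and the highest in the other 3 libraries were 12, 14 and 20. The highest Vegfd count, 9 UMIs, was in an ependymal-like nucleus of 95180 UMIs in the same library. In the few excitatory neuron-like nuclei of cluster 11 in the libraries labelled striatum, Ccbe1 stood at 365 and 271 CPM against 124 and 113 in the libraries labelled cortex. In the same libraries labelled striatum, excitatory cortical neuron-like nuclei held 31 Vegfd UMIs in 265 nuclei with AAV-CTRL and 2 in 82 nuclei with AAV-VEGF-C. As levels these were 24.3 CPM (16.5 to 34.5) and 4.55 (0.551 to 16.4).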
